A study of Mus musculus with 14 samples.

Results

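A set of 31 lysosomal genes was followed across mouse hearts that had carried a pressure load or a sham operation and had received 1 of 2 viral vectors. The list, drawn up by gene name, holds 12 proteases, 7 glycosidases, 6 genes of lipid handling and activator proteins, and 6 membrane proteins. It was chosen with earlier results of these data known, so the shares of it that were called are a description. All 31 were found among the 24972 genes listed, all 31 had values above 0 in every library, and all 31 were among the 13212 genes abundant enough to be tested. Every mouse was a male of the C57BL/6N strain. The TAC+JP2NT group (4 libraries) had TAC, transverse aortic constriction, an operation that puts a pressure load on the left ventricle, and then an AAV2/9 virus expressing JP2NT. JP2NT is the N-terminal stretch of junctophilin-2, a protein that ties the sarcoplasmic reticulum of cardiomyocytes to the cell membrane. The TAC+GFP group (4 libraries) had the same operation and an AAV2/9 virus expressing green fluorescent protein. The Sham+JP2NT group (3 libraries) and the Sham+GFP group (3 libraries) had sham surgery and 1 of these viruses. Mice were operated on at 9 to 10 weeks of age, virus was given by tail vein 2 weeks later (1e+12 viral genomes), and ventricles were taken 8 weeks after surgery. The TAC mice had been chosen for an ejection fraction of 40 to 60%. The promoter that drives either transgene, and whether each library is a separate mouse, are not stated in the labels, so p-values measure the spread between these libraries.

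Lysosomes are acidic organelles in which proteins, glycogen, glycans and lipids taken up by endocytosis or delivered by autophagy are broken down. Soluble hydrolases reach them mostly through mannose-6-phosphate receptors, a proton pump called the V-ATPase keeps the interior acidic, and the limiting membrane is covered by heavily glycosylated proteins such as LAMP1 and LAMP2. In the heart, loss of GAA causes the glycogen storage cardiomyopathy of Pompe disease, loss of LAMP2 causes Danon disease, and loss of GLA causes the cardiomyopathy of Fabry disease. Many lysosomal genes are known targets of the transcription factors TFEB and TFE3, which bind the E-box CACGTG. Several cathepsins also act outside the lysosome: cathepsin K cleaves collagen, and cathepsin S processes antigens in myeloid cells.

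The values are normalised read counts rescaled jointly over all libraries (arbitrary units, with no correction for gene length), and the libraries held 8650188 to 14460617 estimated reads. The fewest reads behind any value of the 31 genes was 33.5, for Gla. Replicates 1 and 2 of Sham+JP2NT were almost within counting noise of each other (observed over counting variance of 1.58 among abundant genes, against 5.64 to 108 in the 17 other pairs within groups). They were averaged and counted as 1 sample, which leaves 13 samples and 2 in that group. Jph2, the gene from which JP2NT derives, ranged from 6054 to 6757 in TAC+JP2NT samples and from 5902 to 6628 in TAC+GFP samples. In Sham+JP2NT samples Jph2 ranged from 6852 to 7143, against 7667 to 8185 in Sham+GFP samples. Its ranges thus overlapped between the TAC groups and were lower with JP2NT in the shams. Jph2 does not check which vector a library received. All 12 cardiomyocyte markers examined were above 0 in every library and together made up 9.13 to 10.5% of the summed values in TAC+JP2NT samples, 7.92 to 9.26% in TAC+GFP samples, 11.97 to 12.10% in Sham+JP2NT samples and 11.99 to 12.23% in Sham+GFP samples.

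Pressure overload moved lysosomal genes in both directions. In TAC+GFP against Sham+GFP hearts, 9 of the 31 genes rose, 11 fell and 11 did not pass the test (limma, Benjamini-Hochberg adjusted p under 0.05), a share of 64.5% called where 48.1% of all genes tested were called. The genes that rose were Ctsk, Ctsl, Ctss, Ctsz, Hexa, Npc2, Asah1, Lamp2 and Cd63, and those that fell were Ctsb, Ctsc, Ctsf, Tpp1, Glb1, Gaa, Npc1, Psap, Lamp1, Scarb2 and Mcoln1. The median log2 difference over the 31 was -0.14, against -0.01 over all genes. It lay at -0.038 without Sham+GFP replicate 2 and at -0.058 without TAC+GFP replicate 3. In TAC+JP2NT against Sham+JP2NT hearts, 4 rose (Ctsk, Ctsz, Hexa and Cd63) and 13 fell, or 54.8%, where 31.9% of all genes were called, with a median of -0.11 against 0.00 over all genes. Over all genes 16.1% were called higher and 15.8% lower under JP2NT, against 23.3% and 24.8% under GFP. The 13 were the 11 named above except Ctsc and Lamp1, with Ctsa, Lgmn, Man2b1 and Grn in addition. Fewer of the 31 were called under JP2NT without Sham+JP2NT replicate 3. Since replicates 1 and 2 were averaged, that fit leaves 1 sample in the group and no spread within it. No gene rose under 1 vector and fell under the other. Cardiomyocyte markers moved in the same samples: 6 of 12 fell and 1 rose in TAC+GFP against Sham+GFP hearts (median log2 difference -0.36), and 5 fell and 1 rose in TAC+JP2NT against Sham+JP2NT hearts (median -0.25). Their part in the falls of the lysosomal genes was not tested. Bulk tissue cannot tell fewer cells of a type from less RNA per cell, and this holds for every value below.

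**Figure D1:**
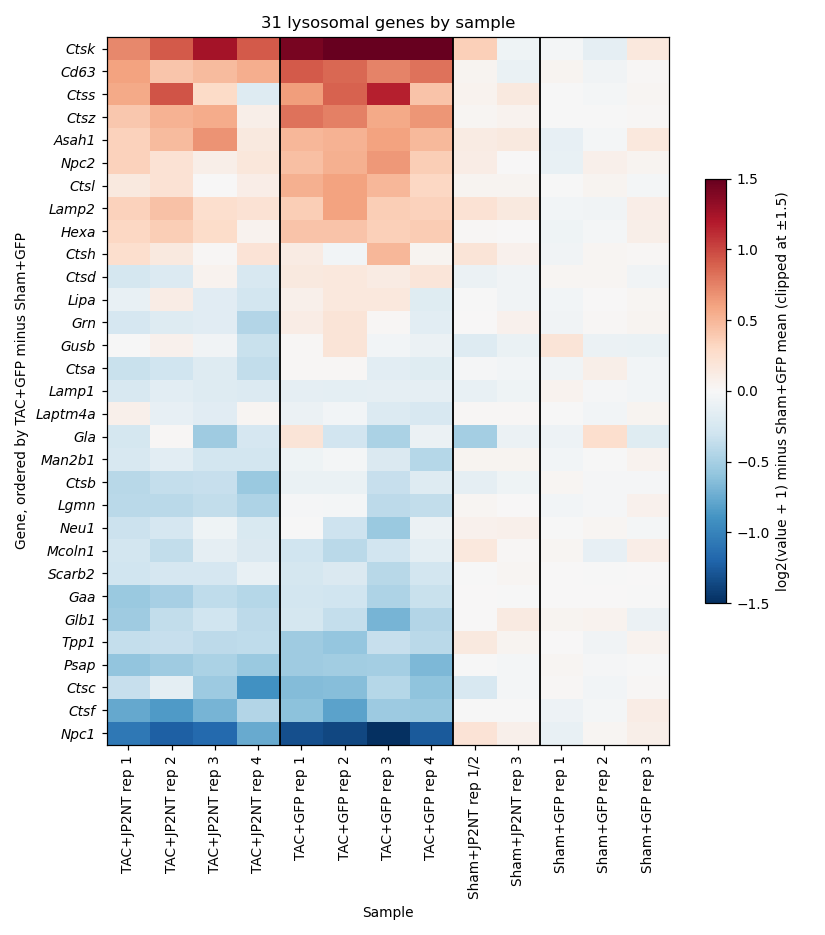
Each cell shows 1 of the 31 lysosomal genes (vertical axis, ordered by the TAC+GFP minus Sham+GFP difference) in 1 of 13 samples (horizontal axis), as log2(value + 1) minus the Sham+GFP mean, clipped at 1.5 either way. Ctsk and Cd63 at the top are red in all 8 TAC samples, Npc1 at the bottom is blue in all 8, and the 5 sham samples are close to white.

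**Figure D2:**
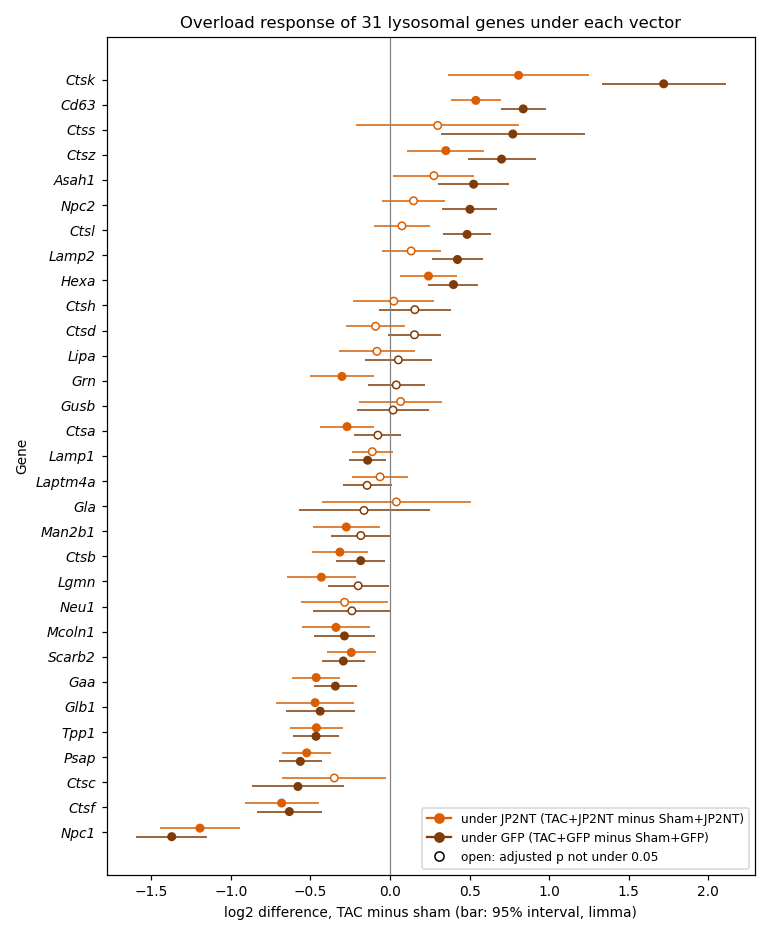
Log2 difference between TAC and sham (horizontal axis) for each of the 31 genes (vertical axis) under JP2NT (upper symbol of each pair) and under GFP (lower symbol), with 95% intervals from limma and open symbols where the adjusted p was not under 0.05. The 9 genes that rose under GFP have smaller differences under JP2NT, while those from Mcoln1 downwards are negative under both.

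Promoter sequence was read for the members because CACGTG is the core of the element through which TFEB and TFE3 act. RefSeq windows (build GRCm38.p6, from 250 bases before to 50 after each start) were matched for 27 of the 31 genes; Ctsb, Ctsh, Npc1 and Asah1 had none. CACGTG, which reads the same on both strands, occurred in 10 of the 27, or 37.0%, against 8.09% of 27025 genes with a window and 10.6% of 13997 genes with a window and a value above 0. The longer palindrome TCACGTGA, each copy of which holds CACGTG, occurred in 4 of the 27 (14.8%; Ctsa, Ctsd, Gla and Mcoln1), against 1.12% and 1.76%. Among the 10 genes with CACGTG, 1 rose (Ctsl), 5 fell (Ctsf, Glb1, Gaa, Lamp1 and Mcoln1) and 4 were not called in TAC+GFP against Sham+GFP hearts. Among the 17 without it, 7 rose, 4 fell and 6 were not called. Of all genes tested, 23.3% were called higher and 24.8% lower in this comparison, and the shares among all genes with CACGTG were not counted. The genes with this motif were thus found in all 3 classes of response, and a match of letters is not evidence that a factor binds there. Stretches of 5 promoters are shown, upstream of the RefSeq start and on the strand of the gene, with CACGTG in capitals. Lamp1 was taken for its 4 copies and Mcoln1 for its 2, though Ctsa, Ctsd and Gla also held more than 1 copy. Ctsd and Ctsl were taken as genes lower in TAC hearts with JP2NT than with GFP. The Ctsd stretch shows the copy 98 bases before the start, and another copy at 245 bases lies outside it. Glb1 was taken as a gene that fell under both vectors. The stretches lie at chr8:13159091-13159155 (Lamp1, plus strand), chr8:3500434-3500493 (Mcoln1, plus strand), chr7:142387898-142387947 (Ctsd, minus strand), chr13:64370731-64370769 (Ctsl, minus strand) and chr9:114401008-114401057 (Glb1, plus strand). The mm10 annotation that gave the gene spans places some starts elsewhere. By those spans the Ctsd and Ctsl stretches lie inside the gene, and the Mcoln1 stretch crosses the gene start at 3500457. The Lamp1 and Glb1 stretches lie before the gene start.
Lamp1: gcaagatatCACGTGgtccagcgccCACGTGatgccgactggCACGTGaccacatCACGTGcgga
Mcoln1: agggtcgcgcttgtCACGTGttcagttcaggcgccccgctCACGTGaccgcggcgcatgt
Ctsd: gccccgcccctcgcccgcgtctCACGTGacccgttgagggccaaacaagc
Ctsl: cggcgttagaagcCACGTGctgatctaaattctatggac
Glb1: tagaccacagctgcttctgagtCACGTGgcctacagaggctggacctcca

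The proteases held the steepest rise. Of the 12, Ctsk, Ctsl, Ctss and Ctsz rose, Ctsb, Ctsc, Ctsf and Tpp1 fell, and Ctsa, Ctsd, Ctsh and Lgmn were not called in TAC+GFP against Sham+GFP hearts. That is 66.7% called, where 48.1% of all genes tested were called. Ctsk, the collagen-cleaving cathepsin K (mm10 chr3:95499256-95509362), was at 94.8, 109, 137 and 108 in TAC+JP2NT samples, 154, 189, 266 and 168 in TAC+GFP samples, 73.2 and 54.4 in Sham+JP2NT samples and 56.1, 51.8 and 63.9 in Sham+GFP samples. Every TAC sample lay above every sham sample, and every TAC+GFP sample lay above every TAC+JP2NT sample. The overload response was 3.29-fold under GFP (log2 1.72, SE 0.18, limma adjusted p = 5.19e-06) and 1.75-fold under JP2NT (log2 0.81, SE 0.21, adjusted p = 0.00908). The response under JP2NT was not called without Sham+JP2NT replicate 3, a fit that leaves 1 sample in that group. Fibroblast markers moved in the same samples: 8 of 12 rose and 2 fell in TAC+GFP against Sham+GFP hearts (83.3%, where 48.1% of all genes were called). In TAC+JP2NT against Sham+JP2NT hearts 4 rose and 1 fell (41.7%, where 31.9% of all genes were called). Their part in the Ctsk values was not tested.

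Cathepsin L, encoded by Ctsl (mm10 chr13:64359337-64370890), is a cysteine protease of general protein turnover. Its values were 2109.8, 2228, 1922 and 2050.1 in TAC+JP2NT samples, 2759, 2897, 2707 and 2362 in TAC+GFP samples, 1971 and 1968 in Sham+JP2NT samples and 1897, 1962 and 1875 in Sham+GFP samples. The TAC+GFP samples stood above all others without overlap, while the TAC+JP2NT samples overlapped the shams. The response was 1.40-fold under GFP (log2 0.48, SE 0.07, limma adjusted p = 7.98e-05) and was not called under JP2NT (log2 0.07, 95% interval -0.10 to 0.25, adjusted p = 0.518). An antisense transcript, Gm47123, shares 26.8% of the exon bases of Ctsl on the opposite strand in the mm10 annotation, and the labels do not state whether counting used the strand. Ctss, the cathepsin of antigen-presenting cells, was at 245, 318, 202 and 144 in TAC+JP2NT samples, 256, 306, 372 and 222 in TAC+GFP samples, 172 and 183 in Sham+JP2NT samples and 165, 163 and 169 in Sham+GFP samples. Its TAC+GFP samples lay above all shams, whereas TAC+JP2NT replicate 4 was the lowest of all samples. The log2 response was 0.77 (SE 0.21, limma adjusted p = 0.00751) under GFP and 0.30 (SE 0.24, adjusted p = 0.366) under JP2NT. The mean log2 level of 20 macrophage markers relative to Sham+GFP was also lowest in that library, at -0.42, where the 3 other TAC+JP2NT libraries were at 0.11 to 0.42 and the TAC+GFP samples at 0.09 to 0.43. Its part in the Ctss values was not tested. Ctsz, the carboxypeptidase cathepsin Z, was at 459, 500.0, 512 and 371 in TAC+JP2NT samples, 612, 586, 517 and 551 in TAC+GFP samples, 355 and 361 in Sham+JP2NT samples and 345, 345 and 352 in Sham+GFP samples. All TAC samples exceeded all shams, with log2 responses of 0.70 under GFP (limma adjusted p = 5.97e-05) and 0.35 under JP2NT (adjusted p = 0.0293). The call under JP2NT was lost in 6 of 25 alternative fits, among them those without TAC+JP2NT replicate 1, 2 or 3.

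Of the proteases, 4 fell with overload under GFP. Ctsf, the cysteine protease cathepsin F, was at 407, 388, 430.2 and 515 in TAC+JP2NT samples, 453, 399.7, 476 and 473 in TAC+GFP samples, 694 and 694 in Sham+JP2NT samples and 660.1, 683 and 750.2 in Sham+GFP samples. None of the 8 TAC samples reached the lowest sham, and the log2 responses were -0.63 under GFP (SE 0.10, limma adjusted p = 9.8e-05) and -0.68 under JP2NT (SE 0.11, adjusted p = 0.000483). Tpp1, the tripeptidyl peptidase lost in a form of neuronal ceroid lipofuscinosis, was at 616, 622, 603 and 604 in TAC+JP2NT samples, 544, 529, 620.5 and 598 in TAC+GFP samples, 877 and 809.8 in Sham+JP2NT samples and 793, 759 and 818 in Sham+GFP samples. Here too the TAC and sham samples did not overlap, and the responses were -0.46 under GFP (limma adjusted p = 8.15e-05) and -0.46 under JP2NT (adjusted p = 0.000736). Ctsc, the dipeptidyl peptidase that activates serine proteases of immune cells, was at 424, 486, 368 and 287 in TAC+JP2NT samples, 342, 347, 399.7 and 354 in TAC+GFP samples, 455 and 527 in Sham+JP2NT samples and 546, 523 and 545 in Sham+GFP samples. The TAC+GFP samples were below all shams, whereas TAC+JP2NT replicate 2 lay between both Sham+JP2NT samples. Ctsc fell by 0.58 on the log2 scale under GFP (limma adjusted p = 0.00266) and had -0.35 under JP2NT (adjusted p = 0.0938). Ctsb, the abundant cysteine protease cathepsin B, was at 6926, 7240.5, 7249 and 6296 in TAC+JP2NT samples, 8594, 8624, 7288 and 8097 in TAC+GFP samples, 8409 and 8803 in Sham+JP2NT samples and 9439, 9159 and 9123 in Sham+GFP samples. Its response was small, -0.18 under GFP (limma adjusted p = 0.0475) and -0.31 under JP2NT (adjusted p = 0.00993), and the call under GFP was lost in 10 of 25 alternative fits, with adjusted p values between 0.021 and 0.122. The call under JP2NT was lost only without Sham+JP2NT replicate 3, a fit that leaves 1 sample in that group.

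Ctsd, the aspartic protease cathepsin D (mm10 chr7:142375911-142388038), was with Psap the most abundant of the 31 genes. It was at 17862, 18592, 22118 and 18079.9 in TAC+JP2NT samples, 23736, 23936, 23331 and 24199 in TAC+GFP samples, 20056 and 20604 in Sham+JP2NT samples and 21742, 21819.8 and 20630.4 in Sham+GFP samples. All 4 TAC+GFP samples exceeded all Sham+GFP samples by a narrow margin, yet the difference was not called (log2 0.15, 95% interval -0.01 to 0.32, limma adjusted p = 0.112), and under JP2NT the groups overlapped (log2 -0.09, adjusted p = 0.459). In the mm10 annotation 34.4% of its exon bases are shared on the same strand with Gm49369, so reads there could have been split between both genes. Legumain, the asparaginyl endopeptidase encoded by Lgmn, was lower in TAC+JP2NT than in Sham+JP2NT hearts, at log2 -0.43 (limma adjusted p = 0.00568). So was Ctsa, the carboxypeptidase that protects beta-galactosidase and neuraminidase, at -0.27 (limma adjusted p = 0.0177). Lgmn and Ctsa had -0.20 (limma adjusted p = 0.0787) and -0.08 (adjusted p = 0.383) under GFP. The Ctsa call was lost without Sham+JP2NT replicate 3, a fit that leaves 1 sample in that group. Ctsh, an aminopeptidase, was called in neither comparison, with log2 values of 0.02 under JP2NT and 0.16 under GFP.

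The glycosidases, which remove sugars from glycogen, glycolipids and glycoproteins, had 2 of 7 lower and 1 higher under GFP (42.9%, where 48.1% of all genes were called), and 3 lower and 1 higher under JP2NT (57.1%, where 31.9% were called). Gaa, acid alpha-glucosidase, which degrades glycogen, was at 1914, 1992, 2173 and 2103 in TAC+JP2NT samples, 2326, 2296, 2042 and 2238 in TAC+GFP samples, 2838 and 2797 in Sham+JP2NT samples and 2830.4, 2821 and 2808 in Sham+GFP samples. The shams were close to one another, and all TAC samples were below them. The log2 responses were -0.34 under GFP (SE 0.06, limma adjusted p = 0.000423) and -0.46 under JP2NT (SE 0.07, adjusted p = 0.000361). Glb1, the beta-galactosidase that removes galactose from gangliosides, was at 220.5, 247, 259.8 and 243 in TAC+JP2NT samples, 266, 250.2, 198 and 236 in TAC+GFP samples, 321 and 352 in Sham+JP2NT samples and 328, 332 and 301 in Sham+GFP samples. All TAC samples again lay below all shams, with responses of -0.44 under GFP (limma adjusted p = 0.00254) and -0.47 under JP2NT (adjusted p = 0.00703). The Glb1 call under JP2NT was lost without Sham+JP2NT replicate 3, a fit that leaves 1 sample in that group. Hexa, the alpha subunit of beta-hexosaminidase, rose by log2 0.40 under GFP (limma adjusted p = 0.000485) and by 0.24 under JP2NT (adjusted p = 0.0389), and the second call was lost in 13 of 25 alternative fits. Man2b1, the alpha-mannosidase, had -0.27 under JP2NT (limma adjusted p = 0.0466, lost in 9 of 25 alternative fits) and -0.18 under GFP (adjusted p = 0.0969). Gla, Neu1 and Gusb, which encode alpha-galactosidase, neuraminidase and beta-glucuronidase, were called in neither comparison. Gla, the gene of Fabry disease, was the lowest of the 31 at 44.4 to 65.5 in TAC+JP2NT samples, 46.1 to 74.0 in TAC+GFP samples, 45.0 to 60.9 in Sham+JP2NT samples and 56.8 to 77.2 in Sham+GFP samples. Its intervals were wide (-0.43 to 0.51 under JP2NT and -0.57 to 0.25 under GFP), so a fall of the size seen for Gaa under GFP, or a rise of the size seen for Hexa under JP2NT, lies within them.

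The lipid genes held the steepest fall. Npc1, the membrane protein that exports cholesterol from the lysosome, was at 439, 395, 412 and 545 in TAC+JP2NT samples, 369.7, 358, 316 and 385 in TAC+GFP samples, 1065 and 972 in Sham+JP2NT samples and 852, 939.8 and 982 in Sham+GFP samples. The TAC and sham samples were far apart, and each TAC+GFP sample lay below each TAC+JP2NT sample. Npc1 was 2.59-fold lower in TAC+GFP than in Sham+GFP hearts (log2 -1.37, SE 0.10, limma adjusted p = 3.57e-07) and 2.29-fold lower in TAC+JP2NT than in Sham+JP2NT hearts (log2 -1.19, SE 0.12, adjusted p = 2.36e-05). Npc2, the soluble protein that hands cholesterol to NPC1 (mm10 chr12:84754562-84773152), moved the other way, at 1109.9, 1016, 927 and 985 in TAC+JP2NT samples, 1194, 1265, 1369 and 1129 in TAC+GFP samples, 940.4 and 879 in Sham+JP2NT samples and 806, 920.3 and 896 in Sham+GFP samples. Its TAC+GFP samples exceeded all others, with a response of 0.50 under GFP (SE 0.08, limma adjusted p = 0.000164) and 0.15 under JP2NT (SE 0.09, adjusted p = 0.238).

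Psap encodes prosaposin, the precursor of the saposins that present sphingolipids to hydrolases. It was at 13585, 14143, 14695 and 13873 in TAC+JP2NT samples, 14105, 14218, 14373 and 12789 in TAC+GFP samples, 20314 and 20128 in Sham+JP2NT samples and 20852, 20253 and 20328 in Sham+GFP samples. All TAC samples lay far below all shams under both vectors, with log2 -0.52 under JP2NT (SE 0.07, limma adjusted p = 0.000182) and -0.56 under GFP (SE 0.06, adjusted p = 8.15e-06), and the 95% interval of the difference between the responses was -0.16 to 0.24. Grn, which encodes progranulin, a secreted and lysosomal protein (mm10 chr11:102430315-102437048), was at 1232, 1287, 1308 and 1088 in TAC+JP2NT samples, 1595, 1677, 1484 and 1315 in TAC+GFP samples, 1482 and 1541 in Sham+JP2NT samples and 1417, 1484 and 1513 in Sham+GFP samples. TAC+JP2NT samples lay below all Sham+JP2NT samples (log2 -0.30, SE 0.10, limma adjusted p = 0.0259). This call was lost without Sham+JP2NT replicate 3, a fit that leaves 1 sample in that group. TAC+GFP samples spread to both sides of the Sham+GFP samples (log2 0.04, limma adjusted p = 0.721). Asah1, the acid ceramidase, rose by 0.53 under GFP (limma adjusted p = 0.000896) and had 0.28 under JP2NT (adjusted p = 0.0904). Lipa, the acid lipase that hydrolyses cholesteryl esters, was called in neither (log2 -0.08 under JP2NT and 0.05 under GFP).

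The membrane proteins also split. Cd63, a tetraspanin of late endosomes, lysosomes and secreted vesicles (mm10 chr10:128900989-128912822), was at 1442, 1271, 1322 and 1389 in TAC+JP2NT samples, 1798, 1737, 1602 and 1679 in TAC+GFP samples, 977 and 889 in Sham+JP2NT samples and 981, 916 and 962 in Sham+GFP samples. The 3 levels did not overlap: TAC+GFP samples were highest, TAC+JP2NT samples intermediate and shams lowest. Cd63 rose 1.45-fold under JP2NT (log2 0.54, SE 0.07, limma adjusted p = 0.000192) and 1.79-fold under GFP (log2 0.84, SE 0.07, adjusted p = 4.24e-07). Lamp2, which is needed for fusion of autophagosomes with lysosomes, was at 2182, 2336, 2039 and 1999.9 in TAC+JP2NT samples, 2225, 2602, 2225 and 2187 in TAC+GFP samples, 1993 and 1902 in Sham+JP2NT samples and 1667, 1650.2 and 1840.3 in Sham+GFP samples. All TAC samples were above all shams, with a rise of 0.42 under GFP (limma adjusted p = 0.000393) and a difference of 0.13 under JP2NT that was not called (adjusted p = 0.261). Lamp1, its partner in the limiting membrane, was at 6488, 6913, 6734 and 6677 in TAC+JP2NT samples, 6983, 6952, 6981 and 6973 in TAC+GFP samples, 7131 and 7347 in Sham+JP2NT samples and 8003, 7599 and 7468 in Sham+GFP samples. Lamp1 was thus slightly lower in every TAC sample than in the shams of its vector, with -0.14 under GFP (limma adjusted p = 0.0405) and -0.11 under JP2NT (adjusted p = 0.176). The call under GFP was lost in 11 of 25 alternative fits.

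Scarb2 encodes LIMP-2, the receptor that carries glucocerebrosidase to lysosomes, and was at 2354, 2435, 2441 and 2697 in TAC+JP2NT samples, 2412, 2505, 2176 and 2398 in TAC+GFP samples, 2904 and 2964 in Sham+JP2NT samples and 2924, 2881 and 2905 in Sham+GFP samples. Its TAC samples were below all shams, with -0.29 under GFP (limma adjusted p = 0.00154) and -0.24 under JP2NT (adjusted p = 0.0187). The Scarb2 call under JP2NT was lost without Sham+JP2NT replicate 3, a fit that leaves 1 sample in that group. Mcoln1, the calcium release channel TRPML1, was at 260.4, 244, 286 and 270.2 in TAC+JP2NT samples, 255, 238, 258 and 284 in TAC+GFP samples, 351 and 320.0 in Sham+JP2NT samples and 321, 289 and 337 in Sham+GFP samples. It fell by 0.29 under GFP (limma adjusted p = 0.0157; 0.0708 without Sham+GFP replicate 3) and by 0.34 under JP2NT (adjusted p = 0.0198), again with no overlap between TAC samples and shams. Laptm4a, a small transmembrane protein of late endosomes, was called in neither (log2 -0.06 under JP2NT and -0.14 under GFP).

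Among overloaded hearts, some lysosomal genes were lower with JP2NT. In TAC+JP2NT against TAC+GFP hearts, 6 of the 31 genes were lower and none was higher, a share of 19.4% where 6.15% of all genes tested were called (3.4% lower and 2.75% higher). These were Ctsk (log2 -0.77, SE 0.17, 1.70-fold lower, limma adjusted p = 0.0178), Ctsl (-0.37, SE 0.07, adjusted p = 0.00705), Cd63 (-0.33, SE 0.06, adjusted p = 0.00746), Ctsd (-0.32, SE 0.07, adjusted p = 0.0196), Grn (-0.30, SE 0.08, adjusted p = 0.0341) and Npc2 (-0.30, SE 0.07, adjusted p = 0.0324). For each of the 6, every TAC+JP2NT sample lay below every TAC+GFP sample. This held for 10 of the 31 genes, among them Lamp1, which was far from a call (log2 -0.06, limma adjusted p = 0.544). The share of all genes that separate in this way was not counted. Ctsk averaged 112 ± 17.6 in TAC+JP2NT and 195 ± 49.8 in TAC+GFP hearts (SD, n = 4 each). Ctsd averaged 19163 ± 1994 in TAC+JP2NT and 23800.3 ± 366 in TAC+GFP hearts (SD, n = 4 each), and Cd63 averaged 1356 ± 75.1 in TAC+JP2NT and 1704 ± 83.6 in TAC+GFP hearts. Ctsa (-0.22, limma adjusted p = 0.0522), Ctsb (-0.23, adjusted p = 0.0531) and Ctsz (-0.31, adjusted p = 0.0644) missed the threshold, also with no overlap between the groups. Npc1 was higher in all 4 TAC+JP2NT samples than in any TAC+GFP sample and missed it too (0.32, limma adjusted p = 0.066). No glycosidase was called by limma, and their log2 differences ran from -0.15 for Hexa to 0.04 for Glb1. Of the 7, 0 had an unadjusted limma p under 0.05, against 2962 of all 13212 genes tested. This comparison and that of TAC+GFP with Sham+GFP share the TAC+GFP libraries. Over the 31 genes, 22 had a negative difference and the median was -0.11, against 0.00 over all genes.

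The number of genes called depended on which libraries and groups entered the fit. It was 2 without TAC+GFP replicate 2, 3 without TAC+GFP replicate 1, 4 without TAC+JP2NT replicate 2 or replicate 4, and 8 without TAC+JP2NT replicate 3 or TAC+GFP replicate 3. It was 10 with 14 separate libraries and 12 on the deposited values without joint rescaling. With both TAC groups alone in the fit, Cd63 remained as the 1 gene called, and Ctsl stood at an adjusted p of 0.0506. Cd63 was called in all 25 alternative fits, Ctsl in all but that 1, Ctsk was lost in 3, Ctsd in 4, Npc2 in 9 and Grn in 11. Fibroblast and macrophage markers were not uniform across these samples. Of 12 fibroblast markers 3 were lower (Postn, Mfap5 and Col3a1) and 1 higher (Ddr2) in TAC+JP2NT than in TAC+GFP hearts. That is 33.3%, where 6.15% of all genes were called. Of 20 macrophage markers none was called. The summed macrophage markers made up 0.0414 to 0.08% of all values in TAC+JP2NT samples and 0.056 to 0.0704% in TAC+GFP samples, and the summed fibroblast markers 0.318 to 0.383% of all values in TAC+JP2NT samples, against 0.324 to 0.414% in TAC+GFP samples. No gene of either list was at 0, and their part in the differences of the 6 genes was not tested.

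**Figure D3:**
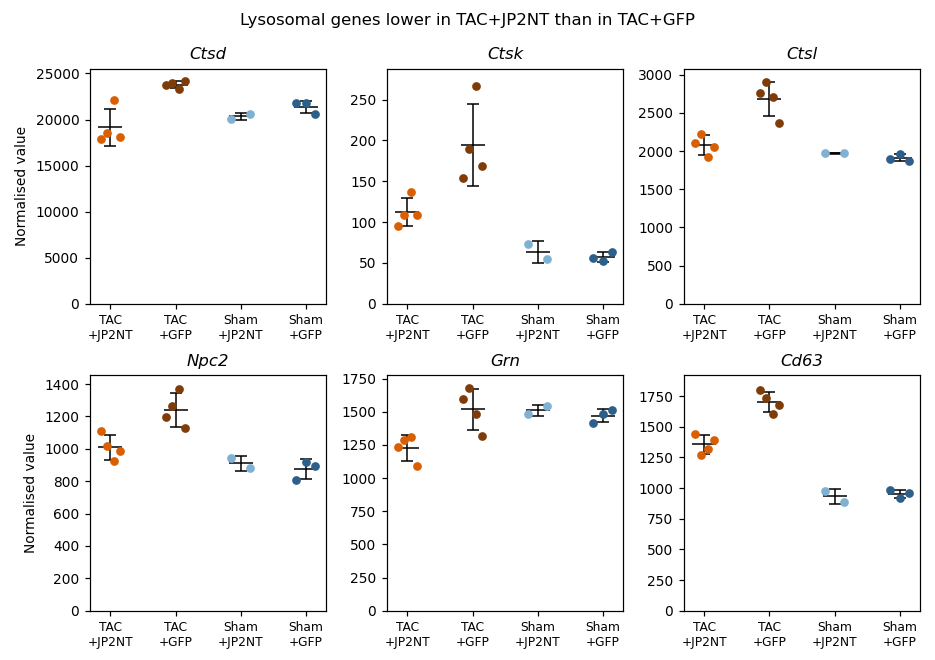
Normalised values (vertical axes, arbitrary units, starting at 0) of the 6 genes that were lower in TAC hearts with JP2NT than with GFP, for the 4 groups along each horizontal axis, with points for samples and bars for the mean and SD. In each panel the 4 TAC+JP2NT points lie below the 4 TAC+GFP points, and only in Ctsk and Cd63 do they also lie above every sham.

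No member was called between the vectors without overload. In Sham+JP2NT against Sham+GFP hearts, 0 of the 31 genes were called by limma and 0 had an unadjusted p under 0.05. Of all 13212 genes tested, 0% were called and 581 had an unadjusted p under 0.05. The median log2 difference of the 31 was 0.02. Their values ran from -0.30 for Gla (95% interval -0.79 to 0.19) to 0.18 for Lamp2 (95% interval -0.01 to 0.38). For Ctsk and Cd63 the intervals were -0.32 to 0.61 and -0.20 to 0.14. For Ctsl, Ctsd, Grn and Npc2 they were -0.14 to 0.23, -0.27 to 0.12, -0.17 to 0.25 and -0.15 to 0.27. These 6 genes were picked by their difference between the TAC groups, so setting that difference against the sham interval is not a test. The difference between the sham and TAC contrasts was tested as the interaction.

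Whether the overload response itself differed between the vectors was tested as the interaction of surgery and vector. None of the 31 genes was called by limma, where 0.0757% of all genes were called (0.0378% higher and 0.0378% lower). An unadjusted limma p under 0.05 was found for 7 of the 31 and for 1505 of all 13212 genes tested. The 7 were Ctsk, Ctsl, Ctsz, Npc2, Grn, Lamp2 and Cd63, and in all 7 the response was lower under JP2NT. Ctsl had the smallest adjusted p (-0.41, SE 0.11, limma adjusted p = 0.157). Ctsk had the largest difference in response (-0.91, 95% interval -1.50 to -0.32, adjusted p = 0.22). The difference was -0.47 for Ctss (interval -1.15 to 0.21, adjusted p = 0.618) and -0.35 for Npc2 (interval -0.62 to -0.09, adjusted p = 0.282). The differences in response were negative in 22 of 31 genes, with a median of -0.13 against 0.01 over all genes. Each of the 9 genes that rose under GFP had a smaller response under JP2NT, with a median of 0.28 against 0.53. Since these 9 were picked by their GFP values, that is a description and not a test. Of the 11 that fell under GFP, 6 had a smaller and 5 a larger response under JP2NT, with medians of -0.46 under JP2NT and -0.44 under GFP.

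Summed over the 31 genes, the values made up 0.656 to 0.745% of all values in TAC+JP2NT samples and 0.741 to 0.769% in TAC+GFP samples. In the Sham+JP2NT and Sham+GFP samples the sum was 0.758% throughout. Ctsd and Psap had the largest values in this sum, so each weighs more in it than any other of the 31 genes. The mean log2 level of the 31 genes relative to Sham+GFP was -0.18 to -0.06 in TAC+JP2NT samples and -0.04 to 0.05 in TAC+GFP samples. TAC+JP2NT replicate 4, with the lowest mean, was also the TAC library with the lowest macrophage marker mean (-0.42) and the lowest fibroblast marker mean (0.23, where the shams were at -0.03 to 0.03). Among TAC libraries it also had the highest cardiomyocyte marker mean (-0.19) and the lowest endothelial marker mean (-0.33). Within groups the genes varied little, with a median SD of log2 values of 0.108 among TAC+JP2NT samples, 0.116 among TAC+GFP samples, 0.0362 among Sham+JP2NT samples and 0.0508 among Sham+GFP samples. Over all genes tested it was 0.176 among TAC+JP2NT samples and 0.158 among TAC+GFP samples. Per kilobase of a principal coding transcript, Ctsd, Psap and Lamp1 were the 3 most abundant and Gla the least in every group, Psap with a level of 5297 in TAC+JP2NT hearts, 5221 in TAC+GFP hearts, 7611 in Sham+JP2NT hearts and 7707 in Sham+GFP hearts. Gla stood at 17.1 per kilobase in TAC+JP2NT hearts, 18.4 in TAC+GFP hearts, 16.7 in Sham+JP2NT hearts and 20.5 in Sham+GFP hearts. This order depends on which transcript gives the length.

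**Figure D4:**
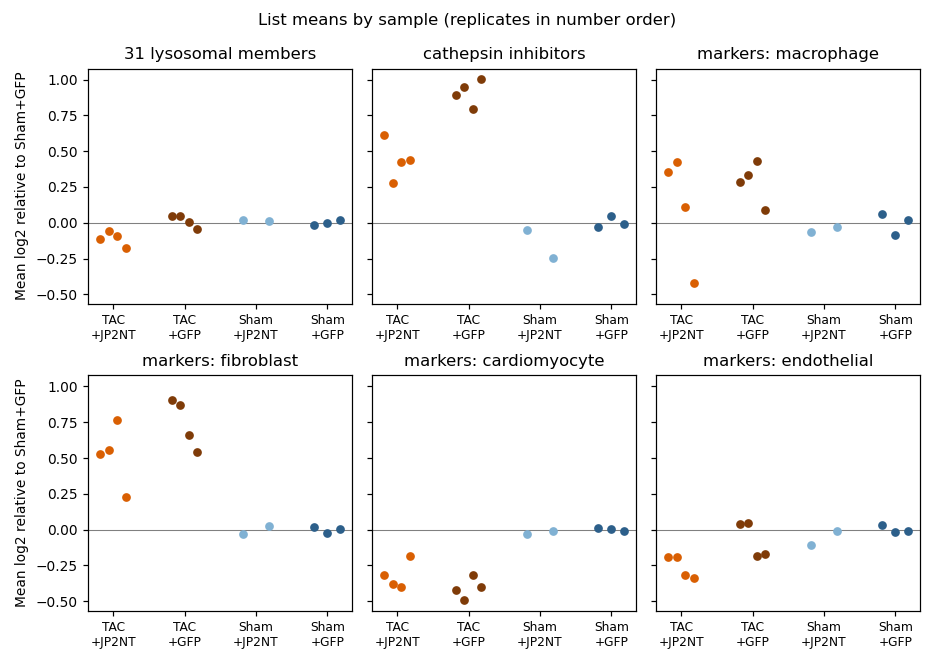
Mean log2 level relative to Sham+GFP (vertical axis) for the 31 lysosomal genes, the tested cathepsin inhibitors and 4 lists of cell type markers, with 1 point per sample in each group (horizontal axis). The lysosomal mean stays between -0.18 and 0.05, the cathepsin inhibitors are above every sham in all 8 TAC samples, and the macrophage mean of TAC+JP2NT replicate 4 stands apart at -0.42.

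Other genes of the lysosomal pathway were examined in 6 lists holding 118 genes, of which 111 were tested. In TAC+GFP against Sham+GFP hearts 23 rose and 35 fell (52.3%, where 48.1% of all genes were called), and in TAC+JP2NT against Sham+JP2NT hearts 13 rose and 27 fell (36%, where 31.9% were called). Fewer were called under JP2NT without Sham+JP2NT replicate 3, a fit that leaves 1 sample in that group. The V-ATPase, the proton pump, had 7 of 17 subunit genes higher and 2 lower under GFP (52.9%, where 48.1% of all genes were called), with a median of 0.14. Atp6v1h, a regulatory subunit, was at 373, 354, 386 and 367 in TAC+JP2NT samples, 455, 514, 429 and 456 in TAC+GFP samples, 249.6 and 285 in Sham+JP2NT samples and 279, 274 and 287 in Sham+GFP samples. All TAC samples exceeded all shams, with log2 responses of 0.72 under GFP (limma adjusted p = 6.36e-06) and 0.47 under JP2NT (adjusted p = 0.00155). Atp6v0b and Atp6v1b2 rose by 0.47 and 0.39 under GFP, and Atp6v0a2 had -0.44 (limma adjusted p = 0.00257, 0.000448 and 0.000324). Under JP2NT 3 subunits rose and none fell (17.6%, where 31.9% of all genes were called), with a median of -0.02.

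Of 20 further membrane proteins and transporters, 11 fell, none rose and 9 were not called under GFP (55%, with 24.8% of all genes lower; median -0.37). Under JP2NT 5 fell, none rose and 15 were not called (25%, with 15.8% of all genes lower; median -0.10). The 4 largest falls called under GFP were Laptm4b (-0.81, limma adjusted p = 1.37e-05), the peptide transporter Abcb9 (-0.69, adjusted p = 0.00138), the cystine exporter Ctns (-0.52, adjusted p = 0.00248) and the sialic acid exporter Slc17a5 (-0.44, adjusted p = 0.0212). Among 32 further hydrolases and activators, 6 rose and 7 fell under GFP (40.6%, where 48.1% of all genes were called) and 2 rose and 9 fell under JP2NT (34.4%, near the 31.9% of all genes). Acp5, the tartrate-resistant acid phosphatase of osteoclasts and macrophages, rose by 1.45 from few reads, and Galns by 0.77, whereas Siae and Idua, a sialate esterase and the iduronidase, fell (log2 -1.03 and -0.96). The limma adjusted p values of these 4 genes were 0.00426, 0.00147, 5.6e-05 and 3.16e-06. Of 18 sorting and mannose-6-phosphate genes, 1 rose and 7 fell under GFP (44.4%, near the 48.1% of all genes), and 2 rose and 7 fell under JP2NT (50%, where 31.9% of all genes were called). Igf2r, the large mannose-6-phosphate receptor, fell by 0.37 under GFP (limma adjusted p = 0.0039) and by 0.28 under JP2NT (adjusted p = 0.0497). Cln8, Nagpa and Vps18 had log2 values of -0.53, -0.53 and -0.52 under GFP, while Vps35, a retromer subunit, rose by 0.48 (limma adjusted p = 0.000384, 0.00258, 0.000253 and 3.01e-05).

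Of 19 nutrient sensing and transcription regulators, 4 rose and 8 fell under GFP (63.2%, where 48.1% of all genes were called, 23.3% higher and 24.8% lower), and 3 rose and 6 fell under JP2NT (47.4%, where 31.9% were called). Tfeb, which encodes the transcription factor known for inducing lysosomal genes, was at 323, 325, 287 and 372 in TAC+JP2NT samples, 367, 333, 301 and 356 in TAC+GFP samples, 432 and 399 in Sham+JP2NT samples and 438, 423 and 396 in Sham+GFP samples. It fell by 0.31 under GFP (limma adjusted p = 0.0149) and by 0.35 under JP2NT (adjusted p = 0.023), with TAC samples below all shams. Its relatives Mitf and Tfe3 fell under GFP, with -0.42 and -0.27 (limma adjusted p = 0.00733 and 0.023). Under JP2NT Mitf fell by 0.39 (limma adjusted p = 0.0318) and Tfe3 had -0.26 (adjusted p = 0.069). Fnip1 and Fnip2, partners of folliculin, rose by 1.07 and 0.52 under GFP, and Flcn, folliculin itself, and Tsc2 had -0.65 and -0.52 (limma adjusted p = 6.04e-05, 0.00062, 0.00179 and 4.36e-05).

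Inhibitors of cathepsins were among the genes that rose. Of 10 listed, 5 passed the filter on low values. Cst3, Cst6, Cstb, Serpinb1a and Serpinb6a rose under GFP (100% of those tested, where 23.3% of all genes were higher). Under JP2NT 3 of them rose, Cst6, Serpinb1a and Serpinb6a (60%, where 16.1% of all genes were higher). Cst3, the secreted inhibitor cystatin C, was at 9494, 7204, 8062 and 8629.7 in TAC+JP2NT samples, 10550.3, 9999.6, 10122 and 10660.2 in TAC+GFP samples, 7436 and 6917 in Sham+JP2NT samples and 6796, 6983 and 7152 in Sham+GFP samples. The TAC+GFP samples stood above all others, with a response of 0.57 under GFP (limma adjusted p = 5.48e-05) and 0.21 under JP2NT (adjusted p = 0.088). Cst6 rose by 1.43, Cstb by 0.66, Serpinb1a by 1.07 and Serpinb6a by 0.83 under GFP (limma adjusted p = 6.29e-06, 0.00171, 0.000324 and 4.8e-06).

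Between the TAC groups, 6 of the 111 other pathway genes were lower with JP2NT and none was higher (5.41%, near the 6.15% of all genes). They were Serpinb1a (-0.90, limma adjusted p = 0.0091), Atp6v1b2 (-0.50, adjusted p = 0.0015), the heparan sulfate hydrolase Naglu (-0.50, adjusted p = 0.0324), Serpinb6a (-0.38, adjusted p = 0.0156), Atp6v1h (-0.32, adjusted p = 0.0208) and Cst3 (-0.31, adjusted p = 0.0239). Atp6v1b2 was at 1478, 1645, 1749 and 1474 in TAC+JP2NT samples, 2200.3, 2303, 2339 and 2104 in TAC+GFP samples, 1477 and 1573 in Sham+JP2NT samples and 1798, 1673 and 1645 in Sham+GFP samples, so its TAC+GFP samples stood above all others. Serpinb1a was at 70.4, 57.9, 69.7 and 58.8 in TAC+JP2NT samples, 120.1, 139, 85.1 and 146 in TAC+GFP samples, 46.2 and 31.8 in Sham+JP2NT samples and 51.3, 59.2 and 59.8 in Sham+GFP samples, and its TAC+GFP samples likewise lay above all others. Without TAC+GFP replicate 2 the count was 2, and without TAC+JP2NT replicate 2 it was 3. Tfeb, Tfe3, Mitf and Igf2r were not called between the TAC groups, with log2 differences of -0.05, 0.09, 0.18 and 0.05. In the sham groups and in the interaction, 0 of the 111 genes were called by limma, and 4 and 14 had an unadjusted p under 0.05. Of all 13212 genes tested, 581 and 1505 had such a p.

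**Figure D5:**
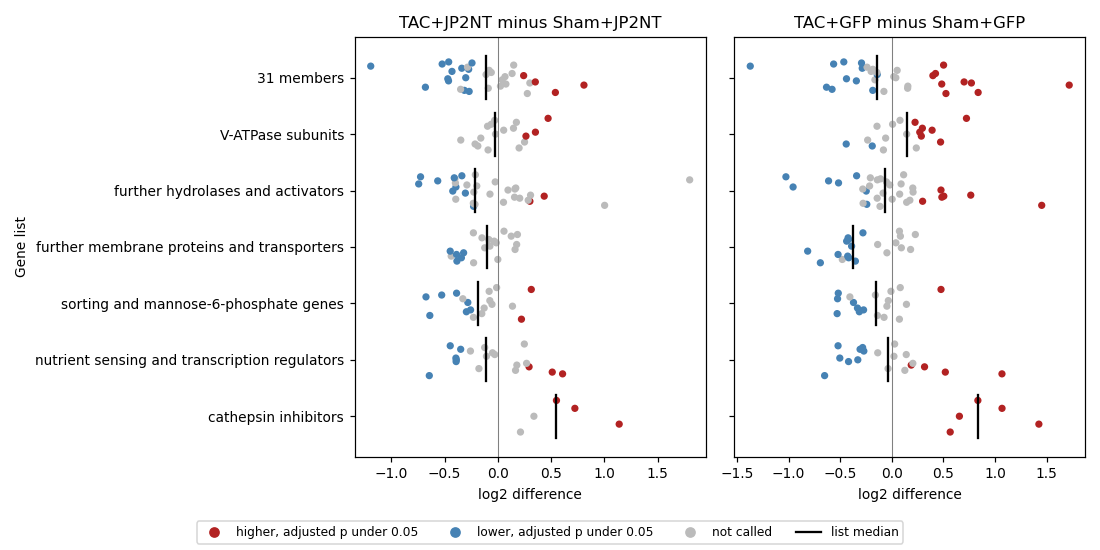
Log2 difference between TAC and sham (horizontal axes) under JP2NT (left panel) and GFP (right panel) for each tested gene of the 31 members and of 6 other lysosomal lists (vertical axis), with black bars at the list medians and colours for genes called by limma. Cathepsin inhibitors lie to the right of 0 in both panels, further membrane proteins and transporters mostly to its left, and the 31 members on both sides.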

How the data were processed

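Stranded libraries of polyadenylated ventricular RNA were sequenced in pairs, and FastQC 1.0.0, STAR 2.6.1a and Salmon with build mm10 are named in the submitters' processing notes, with no annotation, counting strand or scaling software stated. What the authors deposited is a scaled signal. Median-of-ratios factors were 1.03 in all GFP libraries and 0.968 to 0.972 in the JP2NT libraries. The GFP and the JP2NT libraries thus appear to have been scaled separately, which the notes do not state. Any separate handling of these libraries coincides with vector and cannot be told apart from it, also between TAC+JP2NT and TAC+GFP hearts. Read numbers were estimated by taking the commonest low value of each library as the value of 1 read. All libraries were rescaled together with an unweighted trimmed mean of M-values that trims 30% of ratios and 5% of mean levels. Genes reaching a value of 10 in 3 or more samples were tested on log2(value + 1) with limma-trend (limma 3.58.1, R 4.3.3; 9 residual and 5.71 prior degrees of freedom), with all groups in 1 fit and Benjamini-Hochberg adjustment over all 13212 genes in each of 5 comparisons, two-sided. Fold changes are on that scale and understate changes of low genes. A count model had been planned, but limma took its place because these values are not whole. The fit was tested on simulated data. The 31 members, the other lists and the rule for naming genes were chosen with earlier results of these data known. The rule gives values per sample for genes called between the TAC groups, the 8 largest changes and all falls under GFP, the 4 largest interactions, Lamp1 and Lamp2, and names up to 4 genes of each other list. Replicate numbers did not pair samples. Of the alternatives, 14 leave out 1 library and 11 change scaling, pseudocount, filter, averaging, block, spread or the groups fitted.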

Additional observations from a re-analysis of the deposited data

Results flagged for a closer look

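In 62 groups of 4 TAC samples (31 genes under each vector), the highest or lowest sample was compared with the range of its group. Chance marks about 1 group in 20, and 2 stood out. Psap in TAC+GFP hearts was at 14105, 14218, 14373 and 12789, and replicate 4, the lowest, was separated from the next by 0.839 of the range. Lamp2 in TAC+GFP hearts was at 2225, 2602, 2225 and 2187, and replicate 2, the highest, was separated from the next by 0.899 of the range. Both pass Dixon's 95% critical value for 4 samples. The rise of Lamp2 and the fall of Psap under GFP were called in all 25 alternative fits, those without these replicates included.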

How the results depend on the processing

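Over 25 alternatives, 990 of 1075 calls of single genes kept their direction and their side of the threshold, 85 were lost and 0 reversed. Some of these fits leave out a library of neither compared group, so the log2 difference could hardly change in them. Between the TAC groups, where 6 of the 31 genes were called, 12 were called on the deposited values without joint rescaling, 10 with 14 separate libraries, 1 with the compared groups alone and 2 with TAC replicates 1 and 2 averaged. The median of the 31 on the deposited values was -0.19 between the TAC groups and -0.054 between the sham groups. Among the 111 other pathway genes, 21, 2 and 3 were called between the TAC groups on deposited values, with the compared groups alone and with TAC replicates averaged; 23 were called in TAC+JP2NT against Sham+JP2NT with the compared groups alone, 1 between the sham groups with these alone, and 1 in the interaction with 14 separate libraries.

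Leaving out 1 library at a time, the number of the 31 called ran from 18 to 21 in TAC+GFP against Sham+GFP, from 8 to 18 in TAC+JP2NT against Sham+JP2NT and from 2 to 8 between the TAC groups, and was 0 between the sham groups and in the interaction. The medians ran from -0.15 to -0.038, from -0.18 to -0.11 and from -0.15 to -0.085 in these 3 comparisons, from 0.02 to 0.05 between the sham groups and from -0.18 to -0.10 in the interaction. For the other pathway genes the counts ran from 49 to 62, from 11 to 42 and from 2 to 9, and were 0 in the remaining comparisons. Over all genes, 812 were called between the TAC groups, against 1417 on deposited values, 412 with a spread per group, 181 with the compared groups alone, 158 with TAC replicates averaged and 270 to 1077 with 1 library left out. In TAC+JP2NT against Sham+JP2NT 4221 were called, and fewer without Sham+JP2NT replicate 3, which leaves 1 sample in its group and no spread within it. In the interaction 10 were called, against 127 with 14 separate libraries and at most 50 with 1 library left out. The cause of these shifts was not tested.

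The replicate numbers were checked for pairing: deviations of same-numbered samples correlated at -0.17 to 0.08 over 19 pairs, and 1 of 14 libraries correlated best with its own number. With the replicate number as a block and 14 separate libraries, 10 of the 31 genes were called between the TAC groups, as many as without the block, 18 in TAC+GFP against Sham+GFP and 19 in TAC+JP2NT against Sham+JP2NT.

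With 2 samples in the Sham+JP2NT group, responses under JP2NT have wider intervals than those under GFP.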
